A study of Homo sapiens with 12 samples.

Results

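Antigen presentation by MHC (major histocompatibility complex) molecules was followed through 9 genes: the class I heavy chains HLA-B, HLA-C and HLA-E, their light chain B2M, the peptide transporter subunit TAP1, the loading factor TAPBP (tapasin), the class II chain HLA-DRA, the class II chaperone CD74 and the class II transactivator CIITA. The genes were chosen by name, with earlier results of these data known. Each had 1 probe set, and all 9 of 9 were found among 23786 probe sets on 12 Affymetrix arrays. All RNA came from RUES2, a human embryonic stem cell line, guided through definitive and anterior foregut endoderm towards airway epithelium. There were 2 arrays of undifferentiated cells (day 0), 2 of lung progenitors sorted as CD47hi (day 15) and 2 of cells on the way to airway (day 22). Day 36, after low-Wnt media, was sampled by 3 arrays of sorted SCGB3A2+ cells and 3 of sorted SCGB3A2- cells. SCGB3A2 is a secretoglobin of airway secretory cells. All groups come from 1 cell line and no treatment is named. The titles name no sort at days 0 and 22, and across days the effects of time and of sorting cannot be told apart. The labels do not say whether arrays of a group came from separate cultures. The p-values therefore rest on the spread among the arrays alone, and that spread may be technical.

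Class I molecules consist of a heavy chain and beta-2-microglobulin and display peptides from inside the cell to CD8 T cells, and nearly all nucleated cells carry them. Peptides are cut by the proteasome, pumped into the endoplasmic reticulum by the TAP transporter and loaded with the help of tapasin. HLA-E displays a narrow set of peptides, mostly from the leaders of other class I chains, and is read by natural killer cells. Class II molecules display peptides from endosomes to CD4 T cells, are typical of professional antigen-presenting cells and are controlled by CIITA, although airway and alveolar epithelium can carry them too. CD74, the invariant chain, guards the class II groove and also serves as a surface receptor.

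The class I promoters are known to carry a Y box and sites for NF-kappa B and interferon regulatory factors. Promoter windows of RefSeq (GRCh38.p14, 250 bases before to 50 after the gene's start) were at hand for 6 of the 9 genes. The 5 class I windows are shown because these genes did not move together over the time course. Capitals mark matches, on either strand and some overlapping, to CTGATTGG (the Y box), to GAAA and GAAA with any 2 bases between (an interferon response core), and to GGG and TTCC with any 2 bases (the short kappa B form) or any 3 bases (the long form) between. These letters were chosen with the sequences in view. All sequences read 5′ to 3′ along the gene's strand.
HLA-B: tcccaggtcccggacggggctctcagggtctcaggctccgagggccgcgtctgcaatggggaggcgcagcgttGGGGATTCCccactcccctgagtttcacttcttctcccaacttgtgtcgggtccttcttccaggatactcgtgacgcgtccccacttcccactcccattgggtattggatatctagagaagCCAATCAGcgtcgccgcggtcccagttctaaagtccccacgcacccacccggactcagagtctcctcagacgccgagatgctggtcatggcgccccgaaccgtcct
HLA-C: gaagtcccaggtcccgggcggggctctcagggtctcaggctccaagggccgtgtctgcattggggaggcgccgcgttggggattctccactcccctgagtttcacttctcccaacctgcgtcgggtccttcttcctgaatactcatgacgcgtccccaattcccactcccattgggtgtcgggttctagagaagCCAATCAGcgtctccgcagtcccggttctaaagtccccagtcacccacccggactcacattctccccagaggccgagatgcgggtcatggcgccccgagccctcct
B2M: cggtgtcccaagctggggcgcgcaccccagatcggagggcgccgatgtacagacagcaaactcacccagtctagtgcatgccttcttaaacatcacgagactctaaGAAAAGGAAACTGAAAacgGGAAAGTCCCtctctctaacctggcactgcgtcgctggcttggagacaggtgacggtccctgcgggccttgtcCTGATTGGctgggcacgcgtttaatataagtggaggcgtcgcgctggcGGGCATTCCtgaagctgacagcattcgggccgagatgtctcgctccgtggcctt
TAP1: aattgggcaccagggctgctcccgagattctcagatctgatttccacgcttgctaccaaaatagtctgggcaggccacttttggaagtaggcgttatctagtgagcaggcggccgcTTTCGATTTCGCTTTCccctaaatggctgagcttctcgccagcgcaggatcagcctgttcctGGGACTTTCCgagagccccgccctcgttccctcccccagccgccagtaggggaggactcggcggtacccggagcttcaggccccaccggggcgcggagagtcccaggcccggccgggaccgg
TAPBP: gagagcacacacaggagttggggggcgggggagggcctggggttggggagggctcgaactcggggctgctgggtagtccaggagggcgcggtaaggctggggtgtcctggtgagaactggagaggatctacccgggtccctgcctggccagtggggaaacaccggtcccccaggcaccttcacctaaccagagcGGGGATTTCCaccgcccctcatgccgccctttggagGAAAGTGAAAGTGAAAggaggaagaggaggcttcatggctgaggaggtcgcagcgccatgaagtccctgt

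The HLA-B window lies at chr6:31357130-31357429 on the minus strand. The HLA-C window lies at chr6:31272043-31272342 on the minus strand. The B2M window lies at chr15:44711267-44711566 on the plus strand. The TAP1 window lies at chr6:32853655-32853954 on the minus strand. The TAPBP window lies at chr6:33314029-33314328 on the minus strand. HLA-B and HLA-C both had the Y box beginning 56 bases before the start, and their windows were identical at 88.5% of aligned columns. B2M had it at 52 bases before the start, and TAP1 and TAPBP held no such letters in the window. B2M, TAP1 and TAPBP each held a pair of overlapping interferon response cores, and HLA-B and HLA-C held none. Kappa B letters stood in the HLA-B, B2M, TAP1 and TAPBP windows and not in that of HLA-C. Of 35116 promoter windows of this length, 3.97% held the Y box letters, 3.57% the interferon response core, and 6.58% and 6.52% the short and the long kappa B form. The CD74 window held the long kappa B form, 35 bases after the start. These matches describe the letters and say nothing of binding.

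Levels are RMA values on the log2 scale, where 1 unit is a doubling. A difference is 1 group mean minus another on that scale, ± its standard error (SE) in limma, and p-values were adjusted by Benjamini-Hochberg across the whole array with a threshold of 0.05. RMA makes the arrays alike (medians from 3.66 to 3.75), and levels of different genes are not compared, because probe sets differ in brightness. By limma's F-test 8 of the 9 genes differed among the groups, where 51.3% of all probe sets did. The exception was CIITA (adjusted p = 0.0783). CD74 had the widest span between its highest and lowest group mean, 3.10, followed by HLA-DRA (1.89), B2M (1.76), TAP1 (1.70), TAPBP (1.44) and HLA-B (1.07). HLA-E spanned 0.93, HLA-C 0.76 and CIITA 0.40.

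**Figure D1:**
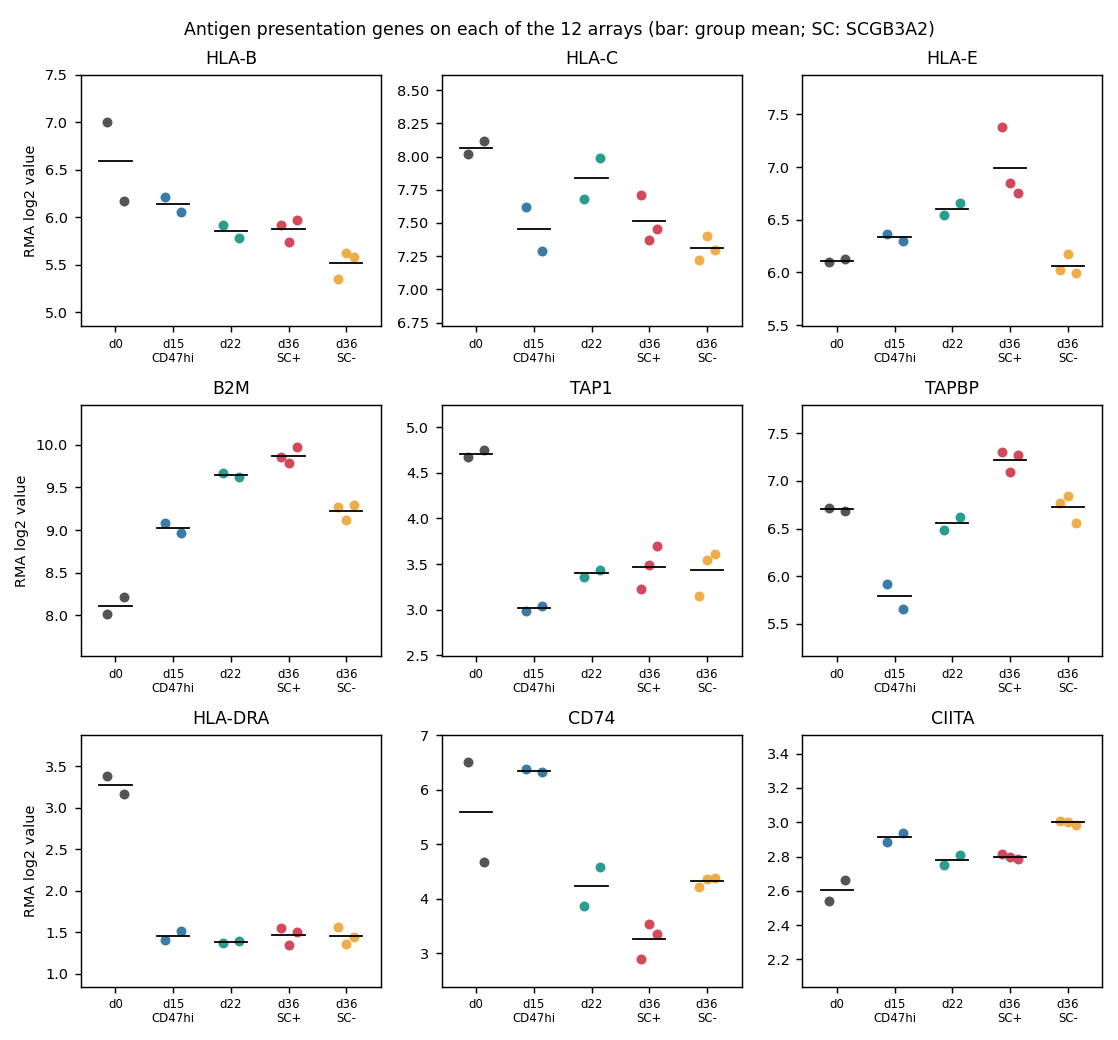
RMA log2 value (vertical axis, its own range in each panel) of the 9 genes on each array, by group, with a bar at the group mean. B2M climbs from day 0 to day 22, TAP1 and HLA-DRA are highest at day 0, and the 2 day 0 arrays lie far apart for CD74 (6.51 and 4.67).

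B2M, the light chain shared by all class I molecules, was lowest at day 0 and higher in every later group. Its levels were 8.02 and 8.21 at day 0, 9.09 and 8.96 at day 15, 9.67 and 9.62 at day 22, 9.86, 9.79 and 9.97 in SCGB3A2+ cells and 9.27, 9.12 and 9.29 in SCGB3A2- cells. No array of a later group overlapped day 0. B2M rose by 0.91 ± 0.14 at day 15 over day 0 (adjusted p = 0.000381) and by 0.62 ± 0.14 at day 22 over day 15 (adjusted p = 0.00818). The second step did not pass without array C of day 15 (0.56, adjusted p = 0.0706). Over day 0 the difference was 1.76 ± 0.13 in SCGB3A2+ cells (3.38-fold, adjusted p = 5.36e-07) and 1.11 ± 0.13 in SCGB3A2- cells (2.16-fold, adjusted p = 2.9e-05). Both share the day 0 arrays. In bulk RNA such as this, fewer cells of a type and less RNA per cell cannot be told apart.

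The classical heavy chains went the other way. HLA-B stood at 7.0 and 6.18 at day 0, 6.22 and 6.06 at day 15, 5.92 and 5.78 at day 22, 5.91, 5.74 and 5.97 in SCGB3A2+ cells and 5.35, 5.63 and 5.58 in SCGB3A2- cells. Array A of day 0 was well above array C, and day 0 and day 15 overlapped. The difference of day 15 from day 0 was -0.45 (adjusted p = 0.167), with -0.86 (adjusted p = 0.00478) without day 0 C and -0.04 (adjusted p = 0.9) without day 0 A. HLA-B was lower in SCGB3A2- cells than at day 0 by -1.07 ± 0.21 (adjusted p = 0.00158), and by -0.65 (adjusted p = 0.0111) without day 0 A. The differences from day 0 of SCGB3A2+ cells (-0.71 ± 0.21, adjusted p = 0.016) and of day 22 (-0.74 ± 0.23, adjusted p = 0.024) rested on day 0 A. Without it they were -0.30 (adjusted p = 0.181) and -0.32 (adjusted p = 0.182), and without day 0 C they were -1.13 and -1.15. With only the 2 groups' arrays in the fit neither passed (adjusted p = 0.0691 and 0.116). The day 22 call also ended without day 22 A (difference -0.80) or day 22 C (-0.67).

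HLA-C was 8.02 and 8.12 at day 0, 7.62 and 7.29 at day 15, 7.68 and 7.99 at day 22, 7.71, 7.37 and 7.46 in SCGB3A2+ cells and 7.22, 7.41 and 7.30 in SCGB3A2- cells. Every later array lay below both day 0 arrays. The fall at day 15 was -0.62 ± 0.17 (adjusted p = 0.0179). It did not pass without day 0 C (-0.56) or day 15 C (-0.45). Nor did it pass with only the arrays compared (adjusted p = 0.0769) or with array weights (0.0586). Against day 0 the difference was -0.55 ± 0.16 in SCGB3A2+ cells (adjusted p = 0.0146, and 0.0801 with array weights). Without day 0 C it was -0.50 and did not pass. In SCGB3A2- cells the difference from day 0 was -0.76 ± 0.16 (adjusted p = 0.00256). HLA-B and HLA-C are near copies of one another and vary between people, so their probe sets may read some of each other's RNA, and how well the probes match the alleles of RUES2 was not tested.

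HLA-E, the conserved ligand of natural killer cell receptors, separated the sorts of day 36. It was 6.10 and 6.12 at day 0, 6.37 and 6.30 at day 15, 6.54 and 6.66 at day 22, 7.38, 6.85 and 6.75 in SCGB3A2+ cells and 6.02, 6.17 and 5.99 in SCGB3A2- cells. All SCGB3A2+ arrays lay above all others, and the SCGB3A2- arrays lay around the day 0 level. SCGB3A2+ exceeded SCGB3A2- cells by 0.93 ± 0.16 (1.91-fold, adjusted p = 0.00118) and day 0 by 0.88 ± 0.17 (adjusted p = 0.00145). SCGB3A2- cells differed from day 0 by -0.05 ± 0.17 (adjusted p = 0.857). The differences of day 15 from day 0 (0.22 ± 0.19) and of day 22 from day 15 (0.27 ± 0.19) did not pass. Day 22 differed from day 0 by 0.49 ± 0.19 (adjusted p = 0.067), which passed without SCGB3A2+ A (0.0156), with a variance trend (0.0455) and without dim probe sets (0.0432).

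TAP1, a subunit of the peptide transporter, dropped between day 0 and day 15 and stayed near the lower level. Its values were 4.67 and 4.75 at day 0, 2.99 and 3.04 at day 15, 3.36 and 3.44 at day 22, 3.23, 3.48 and 3.69 in SCGB3A2+ cells and 3.15, 3.54 and 3.61 in SCGB3A2- cells. Both day 0 arrays were above all others, and the later arrays lay near or below the array medians (3.66 to 3.75). TAP1 fell by 1.70 (SE 0.19) at day 15, or 3.24-fold (adjusted p = 3.19e-05), and was lower than at day 0 by -1.24 ± 0.17 in SCGB3A2+ cells and -1.28 ± 0.17 in SCGB3A2- cells. The sorts differed by 0.03 ± 0.15. TAP2, which pairs with TAP1 in the transporter, fell by 1.56 (SE 0.17) at day 15 (adjusted p = 3.27e-05). PSMB9, an immunoproteasome subunit whose start lies 488 bases from that of TAP1 on the opposite strand, differed by -0.18 ± 0.16 (adjusted p = 0.442), with low levels throughout (2.50 at day 0 and 2.32 at day 15).

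TAPBP, which holds empty class I molecules at the transporter, dipped at day 15 and came back. It was 6.72 and 6.68 at day 0, 5.92 and 5.66 at day 15, 6.49 and 6.62 at day 22, 7.30, 7.10 and 7.27 in SCGB3A2+ cells and 6.77, 6.85 and 6.56 in SCGB3A2- cells. Day 15 was below, and SCGB3A2+ above, every other array. TAPBP fell by 0.91 (SE 0.15) at day 15 against day 0 (adjusted p = 0.00073) and rose by 0.77 ± 0.15 at day 22 over day 15 (adjusted p = 0.00432). Without day 15 C that rise was 0.64 and did not pass. In SCGB3A2+ cells it was 0.67 ± 0.14 above day 22 (adjusted p = 0.00926), a call that ended without day 22 A (difference 0.60) or day 22 C (0.74). It was 0.50 ± 0.13 above SCGB3A2- cells (adjusted p = 0.0135), though not when SCGB3A2- C (0.0676) or SCGB3A2+ A (0.0524) was left out. Against day 0 the SCGB3A2+ difference was 0.52 ± 0.14 (adjusted p = 0.0101, and 0.0613 with array weights).

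**Figure D2:**
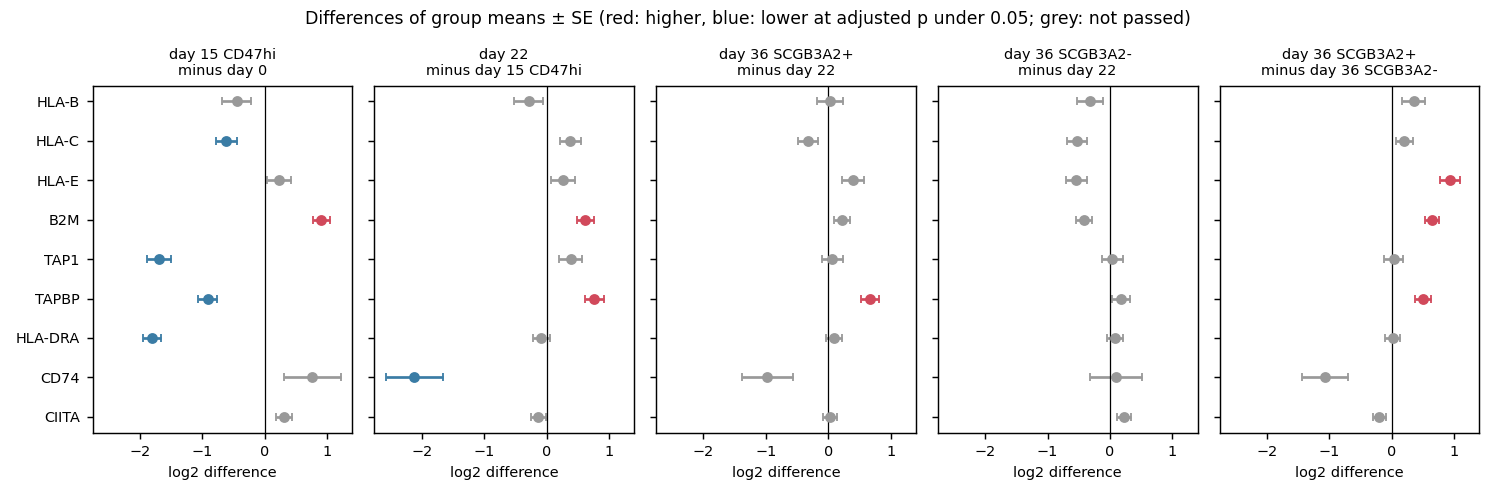
Log2 difference of group means (horizontal axis, bars ± SE) of the 9 genes in the 5 comparisons of neighbouring groups; red and blue mark higher and lower at adjusted p under 0.05, grey marks not passed. B2M differs from day 0 by 0.91 at day 15 while TAP1 and HLA-DRA lie at -1.70 and -1.81.

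HLA-DRA, the alpha chain of the class II molecule HLA-DR, was dim everywhere and dimmest after day 0. It was 3.37 and 3.16 at day 0, 1.41 and 1.51 at day 15, 1.37 and 1.39 at day 22, 1.55, 1.35 and 1.5 in SCGB3A2+ cells and 1.56, 1.36 and 1.44 in SCGB3A2- cells. Even the day 0 arrays were below the array median, and the later groups overlapped near the floor of the scale. HLA-DRA was lower at day 15 than at day 0 by -1.81 ± 0.14 (adjusted p = 2.38e-06), and in SCGB3A2+ cells by -1.80 ± 0.13. Among the later groups its differences ranged from -0.08 to 0.09 and none passed. 

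CD74 did not follow HLA-DRA. It was 6.51 and 4.67 at day 0, 6.38 and 6.32 at day 15, 3.88 and 4.59 at day 22, 2.89, 3.53 and 3.35 in SCGB3A2+ cells and 4.22, 4.36 and 4.38 in SCGB3A2- cells. The day 0 arrays disagreed by more than any later group's, and day 15 lay above every array of days 22 and 36. CD74 was lower at day 22 than at day 15 by -2.12 ± 0.45 (adjusted p = 0.0063). Without day 22 A that difference was -1.76 and did not pass. SCGB3A2+ cells differed from day 0 by -2.33 ± 0.41 (adjusted p = 0.000654), and by -1.41 (adjusted p = 0.00273) without day 0 A. The calls of day 22 (-1.36 ± 0.45, adjusted p = 0.0346) and SCGB3A2- cells (-1.27 ± 0.41, adjusted p = 0.0314) against day 0 ended without day 0 A, at -0.44 (adjusted p = 0.295) and -0.34 (0.377). Without day 0 C these differences were -2.28 and -2.19. The first also ended without day 22 A (adjusted p = 0.214), and the second without SCGB3A2- A (0.0752), B (0.0639) or C (0.0603). Day 15 differed from day 0 by 0.76 ± 0.45 (adjusted p = 0.244), by 1.68 (adjusted p = 0.00198) without day 0 A and by -0.16 (adjusted p = 0.78) without day 0 C, so its direction rests on which day 0 array is kept.

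Between the sorts CD74 differed by -1.07 ± 0.37 (adjusted p = 0.0589), with all SCGB3A2+ arrays below all SCGB3A2- arrays. The spread shared by all groups includes the gap between the day 0 arrays. With either day 0 array left out the adjusted p was 0.00339, with the 6 arrays of the sorts alone 0.00362, with a variance trend 0.0477, with array weights 0.00982 and without dim probe sets 0.0415. In the other settings CD74 did not pass between the sorts, among them the replicate block, median centring, quantile normalization and leaving out any 1 sort array. The class II chains HLA-DPB1 (-2.02 ± 0.44, adjusted p = 0.00592) and HLA-DPA1 (-0.82 ± 0.24, adjusted p = 0.0292) were lower in SCGB3A2+ than in SCGB3A2- cells. HLA-DPB1 was 2.67, 2.98 and 3.30 in SCGB3A2+ cells, against 4.03, 5.34 and 5.63 in SCGB3A2- cells, and the sorts did not overlap. The HLA-DPA1 call ended without SCGB3A2- B (adjusted p = 0.0569), SCGB3A2- C (0.125), SCGB3A2+ A (0.0691) or SCGB3A2+ B (0.0954).

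**Figure D3:**
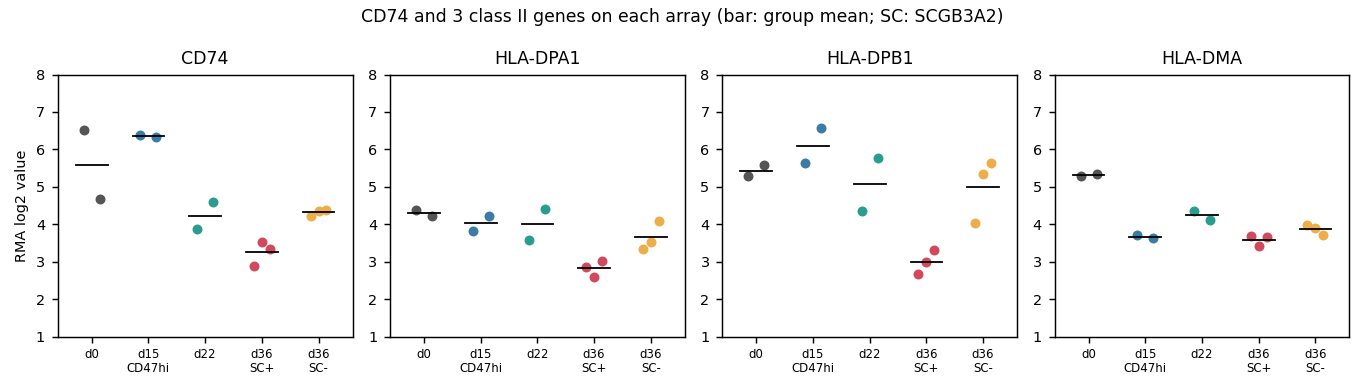
RMA log2 value (vertical axis, one range for all panels) of CD74 and of the class II genes HLA-DPA1, HLA-DPB1 and HLA-DMA on each array, by group, with a bar at the group mean. SCGB3A2+ arrays of HLA-DPB1 lie between 2.67 and 3.30, below the SCGB3A2- arrays (4.03 to 5.63).

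CIITA, the master regulator of class II genes, was low and nearly flat. Its arrays ran from 2.54 to 2.66 at day 0, from 2.88 to 2.94 at day 15, from 2.75 to 2.81 at day 22, from 2.79 to 2.82 in SCGB3A2+ cells and from 2.99 to 3.01 in SCGB3A2- cells. SCGB3A2- cells exceeded day 0 by 0.40 ± 0.11 (adjusted p = 0.0152), and by 0.33 (adjusted p = 0.0599) without day 0 A. That call also ended with only the arrays compared (0.0623) and with a variance trend (0.0553). No other difference of CIITA passed in the 8 comparisons, but that of day 15 from day 0 (0.31 ± 0.12, adjusted p = 0.0787) passed after quantile normalization (0.0109).

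Counted by comparison, 1 of the 9 genes rose (B2M) and 4 fell (HLA-C, TAP1, TAPBP, HLA-DRA) at day 15 against day 0, where 31.5% of all probe sets changed (16.2% higher and 15.3% lower). At day 22 against day 15, 2 rose (B2M, TAPBP) and 1 fell (CD74), beside 19.5% of all (8.95% higher and 10.6% lower), and the total was 1 without day 15 C. In SCGB3A2+ cells against day 22, 1 rose (TAPBP), beside 14.5% (6.75% higher and 7.71% lower). Without day 22 A or day 22 C none passed, and without day 0 A or day 0 C CD74 passed as well (-0.98, adjusted p = 0.0158). In SCGB3A2- cells against day 22, 0 passed by limma, beside 7.9% of all (3.75% higher and 4.15% lower), with 3 at an unadjusted p under 0.05 and between 0 and 2 in the other settings. HLA-E passed there without SCGB3A2+ A (-0.54, adjusted p = 0.0247) and with only the arrays compared (0.0403). B2M passed with a variance trend (adjusted p = 0.0139), with array weights (0.0395) and without dim probe sets (0.0375). HLA-C passed in the same settings (0.0299, 0.0495 and 0.0407), and B2M and HLA-C were both lower than at day 22. Between the sorts 3 were higher in SCGB3A2+ cells (HLA-E, B2M, TAPBP), beside 22.9% of all (10.1% higher and 12.8% lower). The total was 2 without SCGB3A2- C or SCGB3A2+ A. Against day 0, 1 rose and 4 fell at day 22, beside 36.3% of all (17.3% higher and 19% lower). In SCGB3A2+ cells 3 rose and 5 fell, beside 40.6% (19% higher and 21.7% lower), and in SCGB3A2- cells 2 rose and 5 fell, beside 36.6% (17.8% higher and 18.8% lower). The total at day 22 was 3 without day 0 A or day 22 A. The 3 later groups were set against the same day 0 arrays. The members' median difference was -0.45 at day 15 against day 0 and 0.20 between the sorts, beside -0.05 and 0.02 over all probe sets.

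Around the 9 genes, 6 lists of other pathway genes were counted, 56 measured entries in all. At day 15 against day 0, 11 rose and 12 fell, where 31.5% of all probe sets changed (16.2% higher and 15.3% lower). Their median difference was -0.12, beside -0.05 over all probe sets. Among class I chains and relatives 1 of 8 rose and 2 fell (median -0.33). MICB, a stress ligand of natural killer cells, fell by 1.96 (SE 0.16, adjusted p = 3.61e-06), and HLA-F fell by 1.31 (SE 0.19), while MR1, which presents vitamin metabolites, rose by 0.87 ± 0.13. Among 11 processing genes 2 rose and 3 fell (median -0.18), including the immunoproteasome subunit PSMB8 (-1.65 ± 0.20, adjusted p = 7e-05) and the proteasome activator PSME1 (0.91 ± 0.12). The total of processing genes was 3 without day 0 A, day 15 B or day 15 C.

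Of 13 class II pathway genes 4 fell and 1 rose (median -0.40), a total that was 3 without day 0 C, day 15 B or day 15 C. HLA-DMA, which edits class II peptides, differed by -1.65 ± 0.15 (adjusted p = 9.1e-06), and HLA-DOA, which restrains that editing, by -1.73 ± 0.21. Of 6 costimulatory and inhibitory ligands 1 rose and 1 fell (median -0.08), with 4 past the threshold without day 0 A and 1 without day 0 C, day 15 B or day 15 C. CD40, a receptor of antigen-presenting cells, fell by 3.15 (SE 0.26, adjusted p = 3.61e-06). Interferon-gamma signalling genes rose for 2 of 6 and fell for 2 (median 0.26). The receptor-associated kinase JAK1 rose by 1.63 ± 0.17 and SOCS1, a feedback inhibitor of that signalling, fell by 2.26 (SE 0.24). IFNG, the ligand gene, stayed at group means between 1.32 and 1.52. Among the factors of MHC promoters 4 of 12 rose (median 0.12), led by the NF-kappa B subunits NFKB1 (1.99 ± 0.14, adjusted p = 1.12e-06) and RELA (1.31 ± 0.17). NLRC5, the transactivator of class I genes, differed by -0.32 ± 0.16 (adjusted p = 0.162), with all its levels below the array median.

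**Figure D4:**
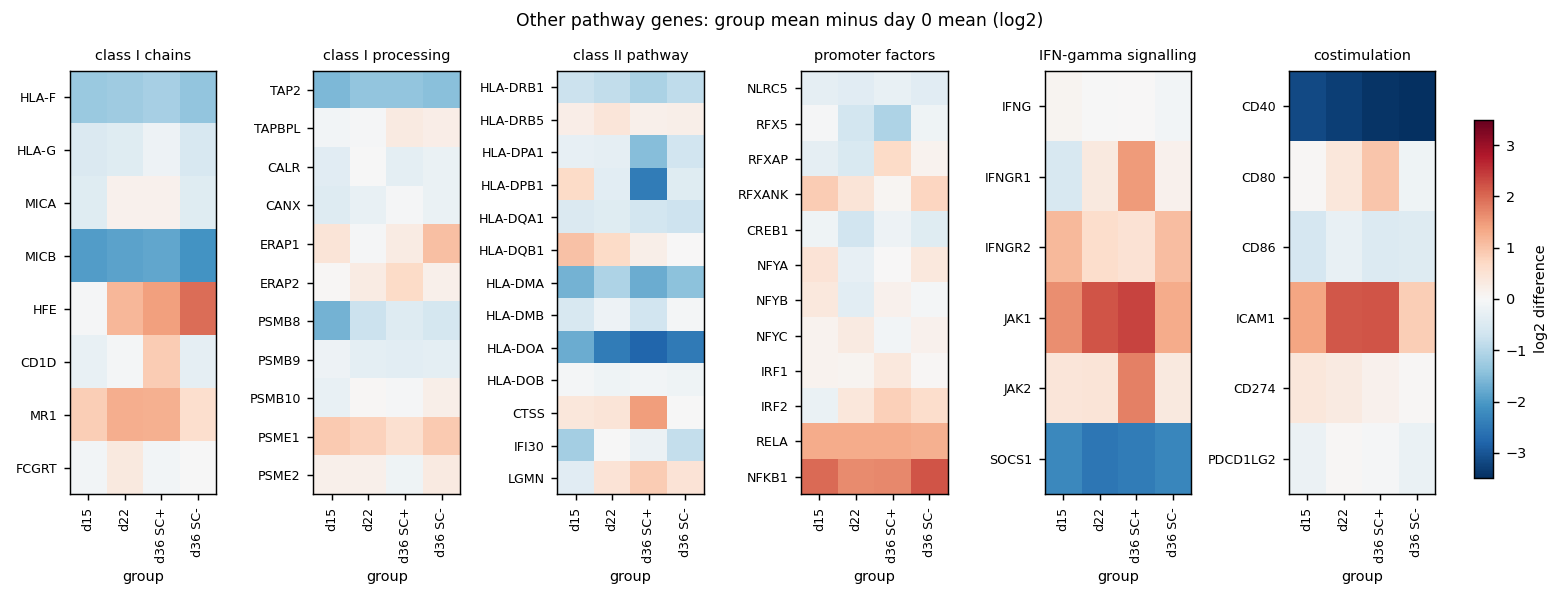
Group mean minus day 0 mean (colour, log2) of the other pathway genes, 1 panel per list and 1 column per later group. CD40, HLA-DOA, MICB and SOCS1 are below day 0 in every later group, and NFKB1, RELA and JAK1 above it.

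Against day 0, 9 of the 56 entries rose and 11 fell at day 22, beside 36.3% of all probe sets. In SCGB3A2+ cells 17 rose and 12 fell, beside 40.6%, and in SCGB3A2- cells 12 rose and 14 fell, beside 36.6%. CD40 stayed low, at -3.44 in SCGB3A2+ and -3.5 in SCGB3A2- cells relative to day 0, and MICB stood at -1.83 and -2.10 in those sorts.

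At day 22 against day 15, 9 of the 56 entries rose and 6 fell. That total dropped when any array of day 15 or day 22 was left out, and the shares of all probe sets in those fits are not given here. Of all probe sets 19.5% passed there (8.95% higher and 10.6% lower). HFE, a class I relative that takes part in iron sensing, rose by 1.20 ± 0.19 (adjusted p = 0.000946), and IFI30, a thiol reductase of endosomes, by 1.19 ± 0.21. The interferon-gamma receptor chain IFNGR1 rose by 0.91 ± 0.15, and NFYA, a subunit of the factor that binds the Y box, fell by 0.75 (SE 0.13). PSMB8 rose by 0.90 ± 0.20 (adjusted p = 0.00812), which did not pass without day 15 C (0.0729) or day 22 C (0.0629).

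Between the sorts of day 36, 11 of the 56 entries were higher in SCGB3A2+ cells and 11 lower, beside 22.9% of all probe sets (10.1% higher and 12.8% lower). Their median difference was 0.08, beside 0.02 over all probe sets. With the replicate letters as a block, 13 were higher and 9 lower. Interferon-gamma signalling genes were higher for 3 of 6 and lower for 1 (median 0.59). IFNGR1 was 7.88, 7.57 and 7.64 in SCGB3A2+ cells, against 6.39, 6.24 and 6.42 in SCGB3A2- cells, a difference of 1.35 ± 0.12 (adjusted p = 1.5e-05). JAK2, the kinase that IFNGR2 carries, was 5.20, 5.61 and 5.63 in SCGB3A2+ cells, against 3.83, 4.22 and 4.10 in SCGB3A2- cells (1.43 ± 0.17, adjusted p = 0.000116). JAK1 was 1.08 ± 0.13 higher and IFNGR2 differed by -0.58 ± 0.11. Neither sort overlapped the other for IFNGR1 or JAK2. IFNGR1 and JAK2 were also above day 22 in SCGB3A2+ cells, by 1.15 ± 0.13 and 1.31 ± 0.19.

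Class I relatives were higher in SCGB3A2+ cells for 3 of 8 (CD1D by 1.19 ± 0.21, MR1 by 0.67 ± 0.11 and MICA by 0.57 ± 0.14) and lower for HFE (-0.52 ± 0.15, adjusted p = 0.0305). The HFE call ended without SCGB3A2- A (0.113), SCGB3A2- B (0.0763), SCGB3A2+ A (0.107) or SCGB3A2+ C (0.108). ERAP1, which trims peptides in the endoplasmic reticulum, was lower in SCGB3A2+ cells by -0.78 ± 0.12 (adjusted p = 0.000565), one of 2 processing genes that were lower beside 1 that was higher. The total of processing genes was 1 without SCGB3A2- B, SCGB3A2- C, SCGB3A2+ A or SCGB3A2+ C. In the class II pathway 2 of 13 were higher and 3 lower, a total that was 2 without SCGB3A2- B and 3 without SCGB3A2- C or any 1 of the SCGB3A2+ arrays. CTSS, the protease that degrades the invariant chain, was 1.46 ± 0.16 higher (adjusted p = 6.04e-05), with all its levels below the array median. The costimulatory ligands ICAM1, also an adhesion molecule (1.35 ± 0.31), and CD80 (1.13 ± 0.18) were higher in SCGB3A2+ cells. CD80 lay below the array median on every array. Promoter factors were lower for 4 of 12. They included RFX5 (-0.92 ± 0.15, adjusted p = 0.00101) and RFXANK (-0.67 ± 0.14), subunits of the complex that binds class II and class I promoters beside NFYA. RFXAP, the remaining subunit of that complex, differed by 0.55 ± 0.22 (adjusted p = 0.101, and 0.0188 with the replicate block).

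**Figure D5:**
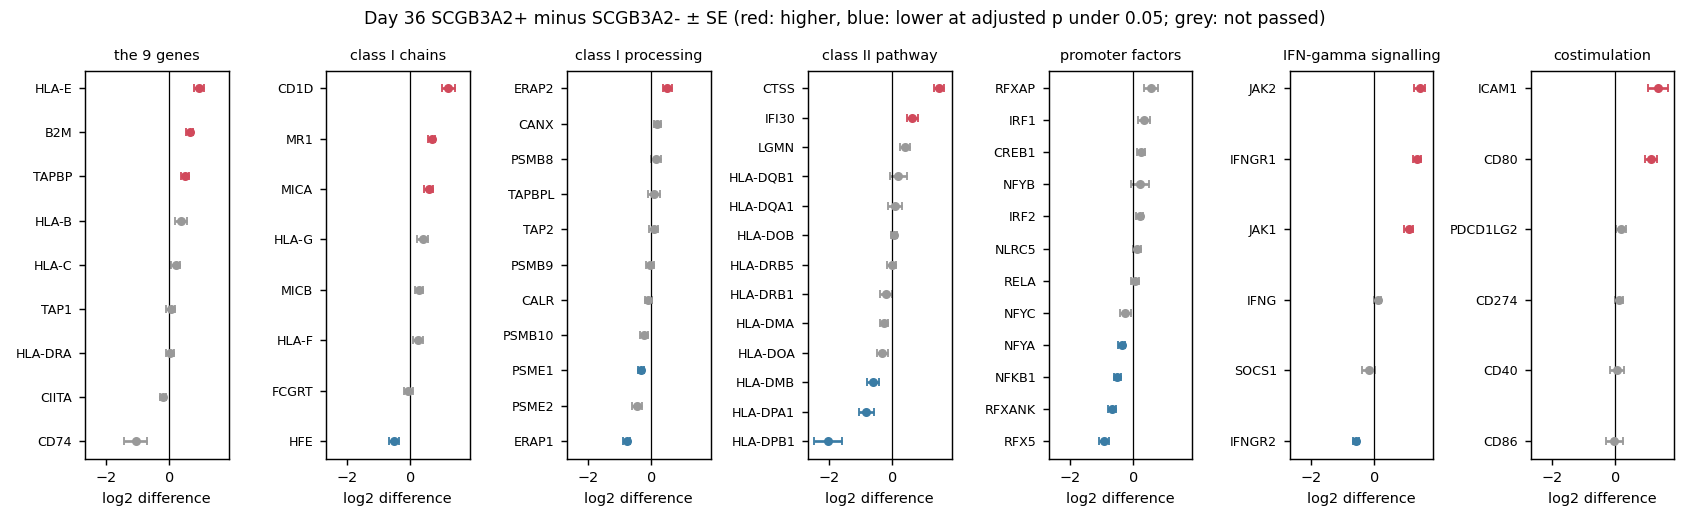
Log2 difference between SCGB3A2+ and SCGB3A2- cells of day 36 (horizontal axis, bars ± SE) of the 9 genes and the pathway lists, each sorted by size; red and blue mark higher and lower at adjusted p under 0.05. JAK2, IFNGR1 and CTSS lie near 1.4, and HLA-DPB1 lies lowest at -2.02.

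Each sort of day 36 was also set against day 22, with shared day 22 arrays. Of all probe sets, 14.5% passed in SCGB3A2+ cells and 7.9% in SCGB3A2- cells. In SCGB3A2+ cells 7 of the 56 entries rose and 3 fell. That total was 6 with SCGB3A2+ A left out, and it also dropped with day 22 A or day 22 C left out. HLA-DPB1 was lower than at day 22 by -2.08 ± 0.49 (adjusted p = 0.0158, but 0.2 when day 22 C and 0.0551 when SCGB3A2+ A was left out). In SCGB3A2- cells 5 rose and 5 fell. Leaving out 1 array lowered that total to 4 (SCGB3A2- A) or 6 (SCGB3A2- B or SCGB3A2- C), and it also dropped without day 22 A or day 22 C. The shares of all probe sets in these fits are not given here. With all arrays, the entries past the threshold in SCGB3A2- cells included ERAP1 (1.09 ± 0.13, adjusted p = 0.000382), JAK1 (-0.90 ± 0.15) and MR1 (-0.68 ± 0.12).

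Levels of markers of other cells were read beside these results. Of 13 leukocyte markers 12 had a named probe set, and in no group did any of them exceed the array median. Their mean level per array ran from 1.77 to 1.95 in SCGB3A2+ cells, 1.82 to 1.93 in SCGB3A2- cells and 1.97 to 2.15 at day 0. PTPRC, the common leukocyte antigen, had group means between 1.19 and 1.36, and the brightest marker was CSF1R at day 15 (3.19). At day 15 against day 0, AIF1 fell from 2.97 to 1.77 (limma adjusted p = 0.000275) and FLT3 from 2.10 to 1.52 (0.0263). CSF1R rose from 2.41 (0.0292), and the other leukocyte markers did not pass. Of 6 endothelium markers, KDR (8.49) and TEK (6.75) were above the array median at day 0, and none was in a later group. The 6 lung epithelium markers averaged 9.93 to 10.13 per array in SCGB3A2+ cells and 6.71 to 7.32 in SCGB3A2- cells. They include SCGB3A2, the gene of the sort itself (group means 9.11 and 2.32). At day 0 the SCGB3A2 mean was 7.15, above that of day 22 (5.79). NKX2-1, SFTPB and SCGB1A1 also had higher means in SCGB3A2+ cells. The general epithelial markers did not share the gap, with EPCAM at 10.29 and 10.15 and CDH1 at 9.83 and 10.15. The part of this difference in the results between the sorts was not tested. Of 6 mesenchyme markers, LUM alone passed between the sorts (3.04 ± 0.34, adjusted p = 7.63e-05), and the other 5 differed by -0.28 to -0.10. The mesenchyme mean per array was 3.03 to 3.30 in SCGB3A2+ cells and 2.69 to 2.91 in SCGB3A2- cells. The 6 markers of pluripotent cells averaged 7.32 to 7.47 per array at day 0, 2.81 to 2.89 in SCGB3A2+ cells and 2.86 to 2.97 in SCGB3A2- cells. SOX2 was higher in SCGB3A2+ cells (7.70 and 5.45) and LIN28A in SCGB3A2- cells (2.21 and 5.48). The other markers of that list had means from 1.43 to 1.90 in the sorts.

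For the 6 genes that spanned at least 1 unit, the probe sets most alike were found by the mean absolute difference of centred values over the 12 arrays. B2M was followed most closely by RIOK3 (0.0802), DCUN1D3 (0.098) and STAM2 (0.103). TAPBP was followed by MAGT1 (0.1), SC5D (0.122) and IDH3A (0.123). HLA-DRA was nearest to TRPM3 (0.0857), PIANP (0.092) and CCDC177 (0.094), and TAP1 to MIR4453HG (0.129), ATP1B3 (0.133) and SLC6A11 (0.142). HLA-B was nearest to SEC14L4 (0.0869), MYBPC2 (0.135) and BHMT (0.139). CD74 had no match as close, with STXBP6 at 0.267, CAP2 at 0.293 and CDO1 at 0.312. These distances are not scaled, so they can be larger for a gene with a wide span or a wide gap between arrays, such as CD74. Among the 9 genes themselves the closest pairs were HLA-B with HLA-C (0.252) and TAP1 with HLA-DRA (0.288).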

How the data were processed

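Gene expression was measured in 12 RNA samples. Per the submitters' processing notes, the authors made the deposited log2 values with RMA, using affy 1.36.1 under R 2.15.1. RMA subtracts background, equalizes the arrays and joins probes into probe sets. The sources used here do not give the annotation release. This method hides changes in total RNA and compresses low values. Probe sets were named through the platform's annotation (22458 of 23786 with 1 symbol, 0 with several, 1328 unnamed), and 0 columns were left unused.

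limma 3.58.1 in R 4.3.3 fitted 1 mean per group to all 12 arrays (7 residual and 4.43 prior degrees of freedom), in 8 comparisons and an F-test, all two-sided, and Benjamini-Hochberg adjustment covered the whole array at a threshold of 0.05. The script was tested on simulated data. Alternatives were only the arrays compared, a trend with robust variances, array weights, a filter on dim probe sets (highest group mean above 3.54, the 40th percentile, which left out HLA-DRA and CIITA), the replicate block, median centring, quantile normalization, and leaving out each array. Leaving out an array of day 0, day 15 or day 22 leaves 1 array in that group. Standard errors can then widen, so a call can end though the difference is much the same. The members and lists were chosen with earlier results of these data known. All members were named, and up to 4 genes per list and comparison with the smallest adjusted p among those that passed without overlap of arrays. PSMB9, NLRC5, IFNG and NFYB, and between the sorts also HLA-DMB, LGMN and RFXAP, fall outside this rule and were chosen after their values were seen. The genes most like a member were the 3 nearest probe sets with a symbol. The 6 lists had 59 entries, 56 with a named probe set, and the others are not analysed here.

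Same-letter arrays of the day 36 sorts deviated together (r = 0.104, 0.124 and 0.111 for A, B and C), so the letters were taken to pair them. Same-letter arrays of day 22 and SCGB3A2- cells deviated together as well (r = 0.126 for A and 0.114 for C), so those may be paired too. For day 22 and SCGB3A2+ cells the values were 0.0302 and 0.0584. Where a group has 2 arrays their deviations mirror each other, and pairing was not established outside the day 36 sorts. The tests between those sorts reported above did not use the pairing. The replicate block put the letters into the fit of all groups, and none of the alternatives paired the day 36 sorts alone. The number of arrays limits the precision.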

Additional observations from a re-analysis of the deposited data

Results flagged for a closer look

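Between the sorts of day 36, the change since day 22 differed for 3 of the 9 genes by limma's test of the sorts against each other. Of all probe sets 22.9% passed that test. Day 22 cancels in it, so it is the difference between the sorts given above. The difference was 0.93 for HLA-E (adjusted p = 0.00118), which stood at 0.39 above day 22 in SCGB3A2+ cells and at -0.54 in SCGB3A2- cells. It was 0.64 for B2M (adjusted p = 0.0017), with 0.23 in SCGB3A2+ and -0.42 in SCGB3A2- cells against day 22. For TAPBP it was 0.50 (adjusted p = 0.0135), with 0.67 and 0.17 in the SCGB3A2+ and SCGB3A2- sorts. Against day 22 itself, neither change passed for HLA-E (adjusted p = 0.170 and 0.0891) or B2M (0.291 and 0.072), and for TAPBP only that in SCGB3A2+ cells did. In some of the alternatives, given above, the falls of HLA-E and B2M in SCGB3A2- cells did pass. The TAPBP call between the sorts ended without SCGB3A2- C or SCGB3A2+ A. All 3 SCGB3A2+ arrays lay above all SCGB3A2- arrays for each of these genes, and also for HLA-B, which did not pass.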

How the results depend on the processing

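Of 72 differences of single members (9 genes in 8 comparisons), 50 kept their side of the threshold under every alternative run that gave a value, and none of those past the threshold turned its direction. They include TAP1 and HLA-DRA in all 8 comparisons and B2M in 6 of them.

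Counts of members past the threshold moved by more than 1.5 times as follows. For SCGB3A2- cells against day 22, with 0 as reported, the count was 1 from only the arrays compared and 2 with a trend and robust variances, with array weights or without dim probe sets. For day 22 against day 0, with 5 as reported, it was 3 from only the arrays compared. Leaving out 1 array gave 4 to 6 for day 15 against day 0, 1 to 3 for day 22 against day 15, between 0 and 2 for SCGB3A2+ cells against day 22, between 0 and 1 for SCGB3A2- cells against day 22, and between 2 and 4 for the sorts. Against day 0 it gave 3 to 6 at day 22, 7 to 8 in the SCGB3A2+ sort and 5 to 7 in the SCGB3A2- sort, and 8 to 8 for the F-test. With the replicate block the counts stayed within that factor. It ended 1 member's call, that of CD74 at day 22 against day 0 (adjusted p = 0.0544), in groups not shown to be paired. With the block, the pathway genes' total was 9 at day 22 against day 15 (15 as reported). For SCGB3A2- cells against day 22 that total was 8 (10 as reported). Among pathway genes of the paired sorts the block ended the calls of PSME1 (adjusted p = 0.0546) and HLA-DMB (0.0553), and brought LGMN (0.0405) and RFXAP (0.0188) past the threshold. The pathway gene NFYB, not called against day 0 as reported, turned direction without 1 day 0 array (0.84 and 0.63 in the SCGB3A2+ and SCGB3A2- sorts without day 0 A, -0.55 and -0.76 without day 0 C). Presence above background was not assessed, as signals of single probes were not analysed here. The causes were not tested.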
